A study of Saccharomyces cerevisiae with 24 samples.

Results

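Dubious open reading frames are stretches of the budding yeast genome that begin with a start codon and run to a stop codon, but that the annotation marks as unlikely to encode a protein. The members described here were the genes whose annotation text contains the word dubious in any case, leaving out chromosomes V and XII and genes with a midpoint within 25000 bases of a chromosome end. The rule found 574 members among the 6664 genes of each deposited table. A further 196 dubious genes were left out, 128 of them on chromosome V or XII. For 2 members the text does not open with that word: RRT1, and YPR170W-B, whose text mentions dubious neighbours only. In the R64 reference all 574 members began with ATG and ended with a stop codon, and their median length was 348 bases, from 75 to 1185.

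The study measured poly(A)-selected, directional RNA-seq of Saccharomyces cerevisiae diploids that carry the mother enrichment programme (MEP), in which β-estradiol stops the division of daughters so that biotin-labelled mothers can be aged and purified from YPD cultures. It used 24 libraries, all from MEP diploids, deposited as 3 tables that were normalised separately, so each test stayed within a table. The first table holds a wild type and a mus81 mutant after 24 h, after 48 h and in log phase, with 2 libraries for each of these 6 groups. MUS81 encodes a subunit of a nuclease that cuts joined DNA molecules. The second holds 2 log-phase and 2 aged libraries of an hst3 hst4 mutant, with 1 log-phase and 1 aged wild-type library. Library names give lane8071 for both wild-type libraries and for hst3 hst4 replicate 1 of each age, and lane8199 for replicate 2. HST3 and HST4 encode histone deacetylases of the Sir2 family. The titles of the aged libraries of that table say 48 h and another label says 24 h, so they are called aged, and the mutant was taken from the titles, since the genotype label reads wild type. The third holds 1 library each at log phase, 24 h and 48 h of a control strain labelled a/a Tom70-GFP with no I-SceI (titled wt GST-V-U, genotype ADE2 pGST-V-U) and of a strain labelled a/a Tom70-GFP with no I-SceI and an XII<>V translocation (titled XIIr<>V). The data go against the a/a label: 5 genes that a cells express (MFA1, MFA2, STE2, STE6 and BAR1) summed to 20.4 RPM and 19.1 RPM in the log-phase libraries of these strains (RPM are reads scaled to the same total of gene reads in every library), next to 15.9 and 15.7 in the wild type of the mus81 table, and MFA1, an a-factor gene, had 3 reads and 1 read.

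The libraries held 1656535 (wild type 24 h replicate 2) to 11330955 recovered reads in genes. MUS81 had 39 to 161 reads in the wild-type libraries and 0 to 10 in the mus81 libraries. HST3 had 278 and 319 reads in the wild type of its table and 2 to 10 in the hst3 hst4 libraries, where HST4 had 0 or 1 against 90 and 87. Nothing in the labels says that replicates came from separate cultures throughout, so p-values measure the spread between these libraries, which may be technical. In bulk RNA, a change in the kinds of cells and a change in RNA per cell cannot be told apart.

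Transcription by RNA polymerase II is not confined to genes. Transcripts start from many weak promoters and run past gene ends, and most such RNA is removed quickly by the nuclear exosome and by cytoplasmic decay. Because dubious frames mostly lie across from, over or just beside genes, reads in them can report antisense transcription, part of a neighbour's mRNA or read-through. The RefSeq annotation nevertheless lists 99 of the members as protein-coding. Of the 574 members, 365 overlapped a gene on the opposite strand only, by a median of 84.4% of their length, and 46 of these were overlapped in full. A further 55 overlapped a gene on the same strand only and 10 overlapped genes on both strands. Another 74 overlapped none but had a same-strand gene within 500 bases, and 70 stood apart from any.

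The sequences of 6 members are given because the changes described below turn on what lies around them. RRT1 (the annotation's name for YBL048W) starts 54 bases after the end of MOH1 on the same strand, and its first 60 bases (R64, chrII:127299-127358, plus strand) and those of YBR032W (chrII:301519-301578, plus strand), a frame that lies between RPL4A and EDS1, are shown with the start codon in capitals.
RRT1: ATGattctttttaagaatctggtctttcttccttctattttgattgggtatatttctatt
YBR032W: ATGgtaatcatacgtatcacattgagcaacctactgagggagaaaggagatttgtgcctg
YHR052W-A (chrVIII:212510-212704, plus strand) and YHR054W-A (chrVIII:214508-214702, plus strand) run antisense to the metallothionein genes CUP1-1 and CUP1-2, with the bases across from the CUP1 coding sequence in capitals. They are identical at 195 of 195 bases, so reads of one cannot be told from reads of the other.
YHR052W-A: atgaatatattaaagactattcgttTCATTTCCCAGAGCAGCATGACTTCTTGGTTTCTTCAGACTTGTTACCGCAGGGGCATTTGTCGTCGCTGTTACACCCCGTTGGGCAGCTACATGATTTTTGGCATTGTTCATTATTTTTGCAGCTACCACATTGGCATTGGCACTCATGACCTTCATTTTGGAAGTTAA
YHR054W-A: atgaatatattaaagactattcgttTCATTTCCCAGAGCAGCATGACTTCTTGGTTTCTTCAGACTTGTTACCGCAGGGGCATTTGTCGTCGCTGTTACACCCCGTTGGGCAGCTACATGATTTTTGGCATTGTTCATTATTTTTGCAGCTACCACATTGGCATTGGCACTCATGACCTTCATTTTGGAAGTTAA
YOR333C (first 120 bases, chrXV:944838-944957, minus strand) is shown in capitals because all of these bases lie across from MRS2, as do bases 1 to 362 of its 417. YPR160W-A (chrXVI:861934-862014, plus strand) is 81 bases long and lies whole inside GPH1 on the same strand, with its start and stop codon in capitals.
YOR333C: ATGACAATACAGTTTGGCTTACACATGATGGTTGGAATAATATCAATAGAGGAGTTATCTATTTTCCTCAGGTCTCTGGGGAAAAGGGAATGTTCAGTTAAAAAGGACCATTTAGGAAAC
YPR160W-A: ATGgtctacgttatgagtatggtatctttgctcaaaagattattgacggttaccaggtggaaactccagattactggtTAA

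More of the dubious frames were detected in old mothers than in log phase in every strain. At the depth of the shallowest library, 235 and 239 members had at least 1 read in the wild-type log-phase libraries of the mus81 table, 335 and 471 at 24 h and 472 and 429 at 48 h. In mus81 the numbers were 251 and 243 in log phase, 355 and 397 at 24 h and 396 and 477 at 48 h. In the hst3 hst4 table they were 300 in log phase and 341 aged for the wild type, and 355 and 337 against 434 and 425 for hst3 hst4. The control strain went from 217 in log phase through 503 at 24 h to 428 at 48 h, and the translocation strain from 253 through 486 to 404. Within each strain every 24 h, 48 h or aged library lay above every log-phase library. The libraries with the fewest reads, wild type 24 h replicate 2 and control 24 h, stood among the highest, and the part of depth in their values was not tested beyond the setting to equal depth.

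Over the 6 strain and table blocks, the oldest libraries exceeded log phase by a mean of 0.65 on the log2 scale, a 1.57-fold rise, higher in 6 of 6 blocks. An exact two-sided permutation test that exchanges libraries within blocks gave p = 0.00116, the smallest its 1728 arrangements allow, and 0.00206 after Benjamini-Hochberg adjustment over the 16 values tested this way. The log-phase level already differed between tables, and the rise was smallest in the hst3 hst4 table, at 0.31 for hst3 hst4 and 0.18 for its wild type, against 0.92 in the wild type of the mus81 table.

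The summed reads of the members also went up with age, from 4303 and 4223 RPM in wild-type log phase to 6394 and 6621 at 24 h and 8001 and 7961 at 48 h. The mus81 libraries went from 4187 and 4337 to 6765 and 6714 and then 8034 and 8759. In the hst3 hst4 table the wild type had 5760 in log phase and 6195 aged, and hst3 hst4 had 5562 and 5472 against 6213 and 5895. The control strain had 4513, 8569 and 9326, and the translocation strain 4563, 8565 and 9295. The groups did not overlap in any strain. The mean rise was 0.70 on the log2 scale (6 of 6 blocks, the same exact permutation p = 0.00116).

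That rise in summed reads was shared with ordinary genes. The median level of all other genes, on the RPM scale, went up by a mean of 0.54 on the log2 scale in the same libraries, in 6 of 6 blocks. The deposited scale holds little of that shift: in wild type at 48 h the median change of other genes was 0.72 on the RPM scale and 0.01 on the deposited scale. Relative to that median the members' summed reads rose by 0.16 only, in 4 of 6 blocks, with an exact permutation p of 0.134. At a depth set by that median, the number of members detected still rose by 0.49, in 6 of 6 blocks (exact permutation p = 0.00116). The summed reads are weighted to few members: the 10 with the most reads held 44.1% to 64.1% of them in each library, led by YDR154C, which overlaps the cyclophilin gene CPR1.

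**Figure D1:**
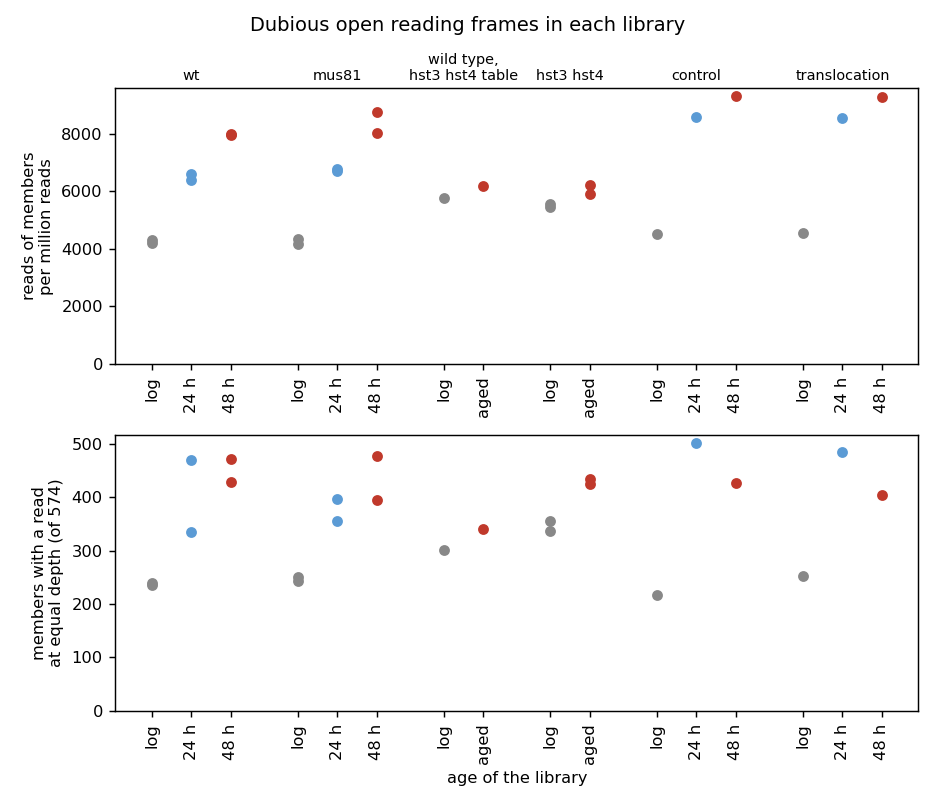
Each point is 1 library. The upper panel plots the RPM of the 574 members and the lower panel the number of members with at least 1 read at the depth of the shallowest library, by strain and age (grey log phase, blue 24 h, red 48 h or aged). In each strain the old libraries lie above the log-phase libraries, but relative to the median of other genes the rise in the upper panel has a permutation p of 0.134.

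Among the position classes, the frames across from a gene had the largest rise in summed reads. The 365 members antisense to a gene only held 257 and 259 RPM in wild-type log phase, 591 and 812 at 24 h and 1012 and 918 at 48 h. In mus81 they held 273 and 262, then 621 and 682, then 836 and 1055. In hst3 hst4 they held 520 and 519 in log phase and 940 and 887 when aged, while its wild type had 442 and 582. The control strain went from 262 to 1068 and 1006, and the translocation strain from 248 to 1008 and 938. In no strain did old and log-phase libraries overlap.

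The mean rise of these antisense members was 1.46 on the log2 scale, or 2.76-fold, in 6 of 6 blocks (exact permutation p = 0.00116, adjusted 0.00206). Relative to the median of other genes it was 0.92, in 6 of 6 blocks with the same p. The 55 members on the strand of a gene rose by 0.66 on the RPM scale (6 of 6 blocks, same p) and by 0.12 relative to the median of other genes (exact permutation p = 0.188). The ratio of antisense reads to these same-strand reads rose by 0.80 in 6 of 6 blocks (exact permutation p = 0.00116). Other genes mostly stood far above the antisense members: their median was 32.2 and 31.6 RPM per kb in wild-type log phase. The antisense members had library medians of 0.330 to 0.367 there and 2.30 to 3.22 at 48 h. The members that stood apart had library medians of 0.414 to 0.468 there and 3.26 to 5.91 at 48 h. By median level the rise was therefore not particular to the antisense members. The 5th percentile of other genes went from 0.674 and 0.719 to 7.97 and 6.27. So the 0.92 alone does not set the antisense members apart from weakly expressed genes. The antisense signal stayed small beside that of the genes it faces: for members overlapped over at least 90% of their length, the summed level per kb was 0.461% and 0.451% of that of the facing genes in wild-type log phase and 2.47% and 2.08% at 48 h. In hst3 hst4 it was 0.895% and 0.864% in log phase and 2.18% and 2.16% when aged. The strand setting of the counting is not given in the sources used here, and with reads counted on both strands these members would stand near the level of the genes they face. A small share of reads placed on the wrong strand in library preparation was not tested for.

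The 74 members near a same-strand gene rose by 0.55 in 5 of 6 blocks (exact permutation p = 0.0162, adjusted 0.0236), and the 70 that stood apart by 0.61 in 4 of 6 (p = 0.0185, adjusted 0.0247, by the same permutation). Relative to the median of other genes these values were 0.01 (permutation p = 0.942) and 0.07 (permutation p = 0.639). The 10 members that overlap genes on both strands rose by 0.88 on the RPM scale, and by 0.34 relative to that median (exact permutation p = 0.00694, adjusted 0.0111).

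**Figure D2:**
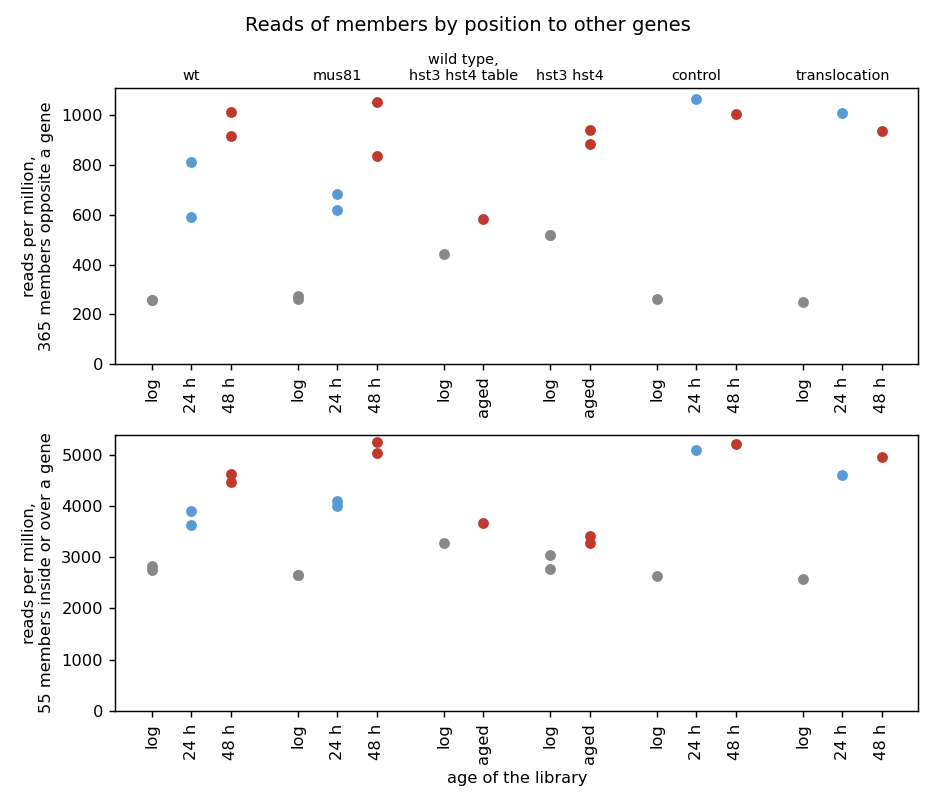
Each point is 1 library, in RPM, for the 365 members that lie antisense to a gene (upper panel) and the 55 that overlap a gene on their own strand (lower panel), by strain and age (grey log phase, blue 24 h, red 48 h or aged). The antisense members rose by a mean of 1.46 on the log2 scale and the same-strand members by 0.66, or by 0.92 and 0.12 relative to the median of other genes.

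Frame by frame, the tests of each table (limma on the deposited log2 values, Benjamini-Hochberg adjustment over all features, called at an adjusted p under 0.05) put 165 of the 574 members higher and 17 lower in wild type at 48 h. That is 28.7% higher and 2.96% lower, where 33.1% of all features were called higher and 30.1% lower. The median change was 1.25 on the log2 scale for members, with quartiles of 0.53 and 2.00, 0.15 for all features and 0.01 for the other genes, and 505 of 574 members changed upward. The share called higher is therefore near that of all features, while the share called lower is far below it. Few features of low level were called lower, dubious or not (counts by level are given below), and most members are of low level. These shares of falls therefore do not compare like with like. Quantile normalisation, which gives every library the same distribution of values, turned this around: it moved the median of all features from 0.15 to −0.11, that of the members to −0.18, and the calls to 34 higher and 99 lower. With every library raised to the highest floor of its table the member median was 0.46. The floor, the value that stands for 0 reads, differs between libraries. It was −0.39 and −0.40 in wild-type log phase, 0.20 and −0.08 at 48 h and −0.35 and 1.43 at 24 h. In wild type, a member with 0 reads at both ages therefore still counts as changed upward on the deposited scale and enters the median.

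At 24 h in wild type 117 members rose and 14 fell (24.4% and 24.2% of all features), a count that ranged from 77 to 218 in all when 1 library was left out, with 77 and 80 without either log-phase library, 83 without 24 h replicate 2 and 218 without 24 h replicate 1. In mus81 at 48 h 134 rose and 18 fell, where 60.2% of all features were called, 30.7% higher and 29.5% lower, with member and feature medians of 1.02 and 0.11. Those 152 calls became 82 without 48 h replicate 2, 87 without log-phase replicate 1 and 99 without log-phase replicate 2. In mus81 at 24 h 85 rose and 12 fell (26.3% and 25.7% of all features), which became 64 in all without log-phase replicate 2 and 64 without 24 h replicate 2.

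In aged hst3 hst4 94 of 550 members tested rose and 26 fell (28.6% and 23.6% of all features), with a median of 0.47 against 0.11 for all features. The count depended on single libraries: 27 and 28 without either aged library, and 211 and 195 without either log-phase library. In the translocation table, fitted with terms for strain and age so that its 2 strains stand in as replicates of an age, 121 of 565 rose and 6 fell at 48 h (40.4% of all features called, 23.1% higher and 17.2% lower), and 221 rose and 6 fell at 24 h (32.1% called, 21.1% higher and 11.0% lower). The 127 calls at 48 h became 30 without the control 48 h library, 56 without the translocation 48 h library, 198 without the control 24 h library and 195 without the translocation 24 h library. The 227 calls at 24 h became 127 without the control log-phase library. Quantile normalisation gave negative member medians in each of these comparisons and fewer members higher than lower, apart from 26 higher and 25 lower in the translocation table at 24 h.

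Setting the members beside genes of like level changed how they read. In wild type at 48 h, members under 1 RPKM (RPM per kb of length) in the log-phase libraries of the other 2 tables were called higher in 50 of 265 cases and lower in none, and other genes of that level in 66 of 140 and none. Between 1 and 10 RPKM, 74 of 213 members and 449 of 645 other genes rose, and 3 and 12 fell. Between 10 and 100, 30 of 68 members and 1173 of 3616 other genes rose, and 6 and 1078 fell. Above 100, 11 of 28 members rose and 8 fell, against 278 and 898 of 1491 other genes. So at low levels the other genes were called higher more often than the dubious frames, and at levels above 10 the frames were called higher more often. This contrast is given as counts with no test. A shorter feature has fewer reads at the same RPKM, and the median length of the members is 348 bases. Length and read number were not matched between the 2 kinds. Median changes followed the level in both kinds: 1.40 and 2.00 in the lowest range for members and other genes, 1.37 and 1.72, then 0.61 and 0.02, then 0.13 and −0.62 in the highest.

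The same order held for members under 1 RPKM in the other 3 oldest comparisons. In mus81 37 of 265 members and 63 of 140 other genes rose, in hst3 hst4 48 of 318 and 160 of 307, and 27 of 277 and 79 of 161 in the translocation table. In hst3 hst4 2 of 26 members above 100 RPKM rose and 14 fell, much like other genes of that level, of which 121 of 1359 rose and 791 fell.

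**Figure D3:**
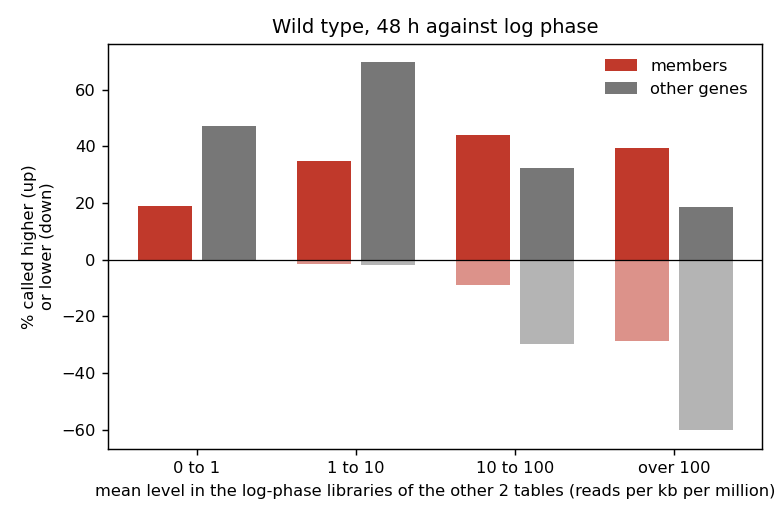
Bars give the percent of members (red) and of other genes (grey) called higher (above 0) or lower (below 0) in wild type at 48 h against log phase, by mean level in the log-phase libraries of the other 2 tables. In the lowest range 50 of 265 members and 66 of 140 other genes were called higher, and above 100 RPKM 8 of 28 members and 898 of 1491 other genes were called lower, on the deposited scale and not under quantile normalisation.

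For the frames that are silent in log phase, a member was taken as quiet when it stayed under 1 RPKM in every log-phase library of the 2 tables not tested. Over the 132 quiet members of the mus81 table, the reads summed to 37 and 49 in wild-type log phase and to 309 and 255 at 48 h, although the 48 h libraries were shallower. In mus81 they summed to 95 and 47 in log phase and 208 and 423 at 48 h. On the RPM scale that is 4.99 and 6.47 against 102 and 64 for wild type, and 8.38 and 7.07 against 45.3 and 105 for mus81. The sums did not overlap, and 17 of the 132 were called higher in wild type at 48 h and 7 in mus81, with none lower.

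The 231 quiet members of the hst3 hst4 table had 45.7 RPM in wild-type log phase and 67.7 aged, and in hst3 hst4 83.5 and 80.0 in log phase and 225 and 210 aged. Of the 210 of them tested, 35 rose in hst3 hst4 and none fell. The 130 quiet members of the translocation table had 3.90 RPM in the control log phase, 167 at 24 h and 66.0 at 48 h, and 9.09, 150 and 50.1 in the translocation strain. Both strains were thus higher at 24 h than at 48 h. Quiet genes that are not dubious were called higher in 17 of 52 cases in wild type at 48 h, 102 of 187 in hst3 hst4 and 20 of 55 in the translocation table at 48 h, where 4 of 127 quiet members were. At 24 h the same table gave 55 of 127 quiet members called higher, and 30 of 55 other quiet genes.

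RRT1, named in a screen for genes that regulate ribosomal DNA transcription, showed the largest change of any named member in wild type. It had 0.864 and 0.846 RPKM in wild-type log phase, 38.3 and 34.8 at 24 h and 122 and 123 at 48 h. In mus81 it had 1.41 and 0.964, then 36.4 and 35.2, then 84.5 and 132. In the hst3 hst4 table the wild type went from 3.00 to 38.1, while hst3 hst4 was already at 23.1 and 31.5 in log phase and reached 78.8 and 77.8. The control strain went from 1.14 through 44.5 to 256 and the translocation strain from 1.68 through 63.3 to 165. Old and log-phase libraries did not overlap in any strain, and only in hst3 hst4 was log phase above 5 RPKM. The change was 6.50 ± 0.33 (log2, SE) in wild type at 48 h (limma adjusted p = 1.54e-09), 5.78 ± 0.33 in mus81, 1.30 ± 0.22 in hst3 hst4 (adjusted p = 0.00775) and 6.65 ± 0.43 in the translocation table.

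MOH1, the gene that ends 54 bases before RRT1 and is linked to survival in stationary phase, rose by 8.43 in wild type, 5.88 in mus81, 1.42 in hst3 hst4 and 6.61 in the translocation table. Its level in wild type went from 0.323 and 0.317 RPKM to 203 and 150. Gene-level values cannot tell a MOH1 transcript that runs on from one that starts at RRT1.

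Among members antisense to a gene, YHR054W-A rose by 4.45 ± 0.33 (limma adjusted p = 4.68e-08) in wild type at 48 h, from 2.07 and 2.03 RPKM to 79.8 and 63.0, and YHR052W-A by 3.18 ± 0.36. In hst3 hst4 they rose by 2.43 and 3.81 and in the translocation table by 3.53 and 3.89. The facing genes CUP1-2 and CUP1-1, which encode a copper-binding metallothionein, were at −0.57 and −0.71 in wild type, both called lower. YHR056W-A, next along that chromosome and across from the chromatin remodeller gene RSC30, rose by 4.11 in wild type, 3.60 in mus81, 2.88 in hst3 hst4 and 2.64 in the translocation table. RSC30 changed by 0.30 in wild type, which was not called.

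YOR333C lies across from MRS2, a gene for a mitochondrial magnesium channel. It had 0 and 0.317 RPKM in wild-type log phase, 0.868 and 1.45 at 24 h and 7.94 and 7.82 at 48 h, and in hst3 hst4 1.50 and 0.605 in log phase against 15.0 and 9.64 aged. It rose by 4.04 ± 0.67 in wild type (limma adjusted p = 8.80e-05), 3.61 in mus81, 3.41 in hst3 hst4 and 2.61 in the translocation table, where the call was lost under quantile normalisation or without 1 of the control 48 h, translocation 48 h and translocation log-phase libraries. The hst3 hst4 call was lost without aged replicate 1. These rest on few reads, 10 and 13 at 48 h in wild type, and the fitted change of a member with 0 reads in log phase depends on the value entered for 0. MRS2 was at −0.09 in wild type and not called.

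The antisense members YKR033C, YKL177W and YJR020W faced genes that rose. YKR033C, across from the nitrogen repressor gene DAL80, rose by 3.52 in hst3 hst4 and 2.82 in wild type, and DAL80 by 3.34 and 4.70. YKL177W, across from the a-factor receptor gene STE3, rose by 4.05 in mus81 and 2.61 in wild type, and STE3 by 1.87 and 3.17. YJR020W, across from the peroxisomal thioesterase gene TES1, rose by 3.68 in hst3 hst4, where TES1 rose by 1.13. YIL066W-A, across from YIL067C, rose by 3.11 in wild type, 3.54 in mus81, 3.30 in hst3 hst4 and 3.86 in the translocation table; the first 2 of these calls were lost under quantile normalisation. YKL053W, across from the kinetochore gene ASK1, rose by 4.25 in the translocation table at 48 h, a call lost without the control 48 h library (adjusted p = 0.0534), while ASK1 was at −0.74 and not called.

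Over all 365 antisense members the changes of the member and of the facing gene were nearly unrelated in wild type. Of the 91 that rose in wild type at 48 h, the facing gene rose in 25 cases, fell in 41 and was not called in 25. Among all 352 facing genes 91 rose and 167 fell, so the shares for risen members were near those of all facing genes. Across the 365 pairs, which share libraries and in part genes and are not independent replicates, Pearson's r between the 2 changes was −0.01 and Spearman's rho 0.01. In mus81 the 63 risen members faced 28 risen and 20 fallen genes (r = 0.13), where 89 of all 352 facing genes rose and 167 fell. In hst3 hst4 the 52 risen faced 22 risen and 7 fallen genes (r = 0.15), where 107 of all 336 rose and 89 fell. In the translocation table at 48 h the 68 risen faced 15 risen and 11 fallen genes (r = 0.01), where 58 of all 345 rose and 92 fell. These counts were not tested.

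For members on the strand of a gene, the member and the gene were often called in the same direction; they share bases, so reads of the overlap cannot be told apart. In wild type at 48 h 15 of 19 members rose where the overlapped gene rose and 11 of 25 fell where it fell, with 1 of these 25 risen. YPR077C, 356 bases of which overlap YPR078C, had 1.09 and 0.355 RPKM in wild-type log phase and 18.7 and 15.5 at 48 h, and in hst3 hst4 5.05 and 5.42 in log phase and 31.2 and 36.0 aged. It rose by 4.12 ± 0.55 in wild type (limma adjusted p = 1.10e-05), 4.43 in mus81, 2.44 in hst3 hst4 and 3.97 in the translocation table, the last lost without the translocation 48 h library. YPR078C rose by 3.38 in wild type. YPR160W-A rose by 4.22 ± 0.72 with its host GPH1, the glycogen phosphorylase gene, which rose by 3.72. It had 0 reads in both wild-type log-phase libraries of the mus81 table and 10 and 15 at 48 h, but 117 in the log-phase wild type of the hst3 hst4 table.

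Falls in wild type at 48 h were 17, and 11 of them were members on the strand of a gene. YBL039C-A, 84 bases inside the CTP synthase gene URA7, had 825 and 907 RPKM in log phase, 513 and 647 at 24 h and 268 and 266 at 48 h, a change of −2.36 ± 0.17 (limma adjusted p = 4.31e-08), and URA7 was at −1.76. YBR121C-A, inside the glycyl-tRNA synthetase gene GRS1, was at −2.04, and GRS1 at −1.17. Both fell in each of the 4 oldest comparisons. YBR032W overlaps no gene: it starts 264 bases after the ribosomal protein gene RPL4A and ends 122 bases before the putative transcription factor gene EDS1. It had 20 and 19 reads in wild-type log phase, 0 and 1 at 24 h and 1 and 2 at 48 h, a change of −3.33 ± 0.82 (limma adjusted p = 0.00240), and −2.80 in mus81. RPL4A was at −1.49 and EDS1 rose by 4.88. In hst3 hst4 it had 3 and 4 reads in log phase and 6 and 3 aged. YJL086C, which overlaps EXO70 by 20 bases and TRL1 by 8, was at −2.53 in wild type, on 7 and 8 reads against 0 and 1, a call lost without log-phase replicate 2.

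YBR056W-A, which stands apart, rose by 4.08 in wild type, 3.27 in mus81 and 4.53 in the translocation table, and was at −0.38 in hst3 hst4. It had 5.37 and 7.88 RPKM in wild-type log phase of the mus81 table, but 189 in that of the hst3 hst4 table and 242 and 399 in hst3 hst4 log phase. Its log-phase level thus differed between the wild types of separate tables by more than it changed with age in the hst3 hst4 table. YKL162C-A, also apart, rose by 3.89 in wild type and 3.46 in mus81.

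**Figure D4:**
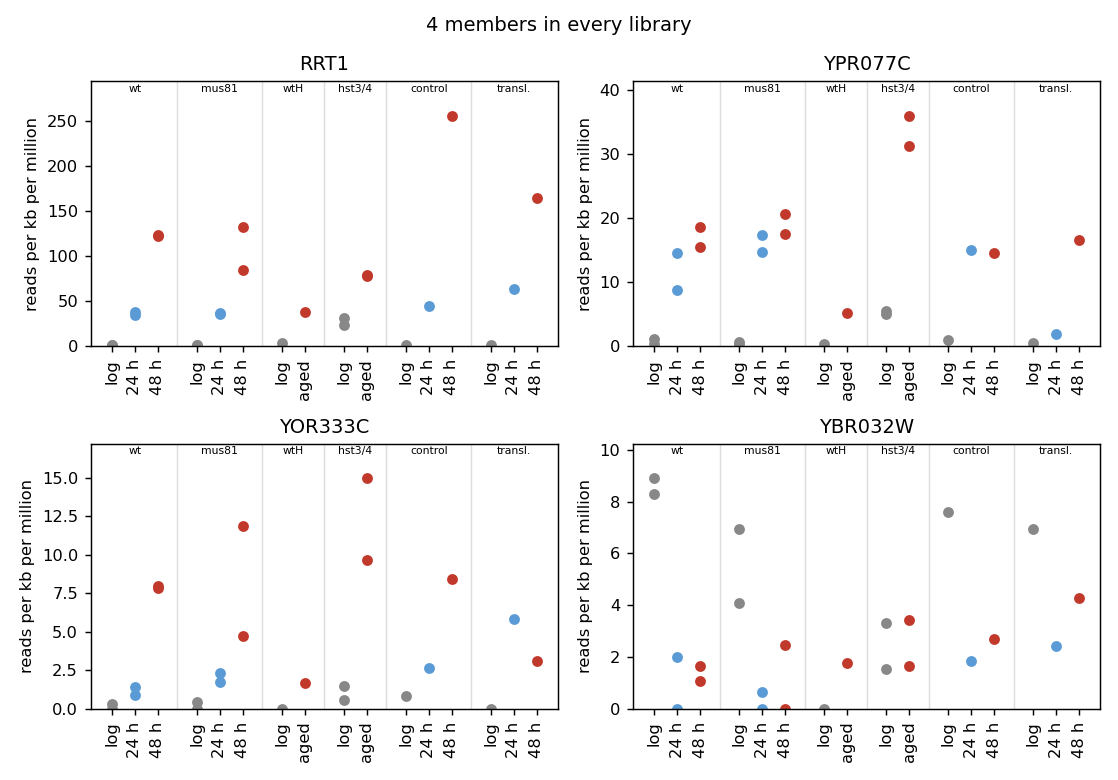
Each point is 1 library, in RPKM, for RRT1, YPR077C, YOR333C and YBR032W, by strain and age (wtH is the wild type of the hst3 hst4 table; grey log phase, blue 24 h, red 48 h or aged). RRT1 went from 0.864 and 0.846 to 122 and 123 in wild type, while YBR032W went from 20 and 19 reads to 1 and 2.

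For members with no same-strand overlap, the calls followed those of the same-strand gene before them in all 4 oldest comparisons, and to a like degree those of the gene after them in hst3 hst4. Where a same-strand gene ended within 500 bases before the member, the member rose in 20 of 30 cases when that gene rose in wild type at 48 h, in 1 of 35 when it fell and in 7 of 34 when it was not called. In mus81 the counts were 18 of 30, 1 of 34 and 7 of 35. In hst3 hst4 they were 8 of 23, 0 of 24 and 4 of 48, and in the translocation table at 48 h 10 of 17, 1 of 24 and 16 of 58. For a same-strand gene starting within 500 bases after the member, wild type gave 10 of 37, 7 of 48 and 13 of 44, and mus81 8 of 39, 11 of 47 and 8 of 43. The counts were 5 of 33, 1 of 25 and 9 of 71 in the translocation table. In hst3 hst4 the counts were 12 of 38, 1 of 31 and 13 of 55, about as steep as for the gene before. These are counts of the same libraries' calls, on the deposited scale, with no test.

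**Figure D5:**
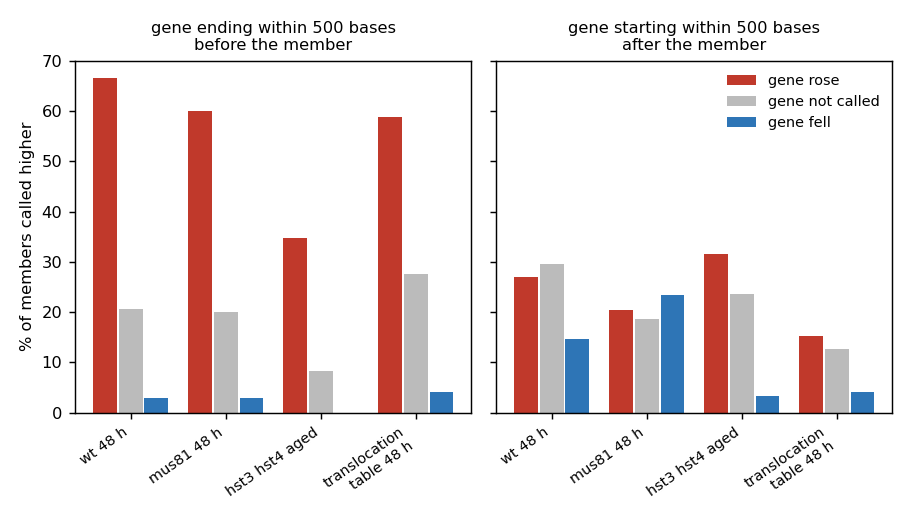
Bars give the percent of members called higher in each of the 4 oldest comparisons, split by whether the same-strand gene ending within 500 bases before (left) or starting within 500 bases after (right) rose, was not called or fell. In wild type 20 of 30 members rose behind a risen gene and 1 of 35 behind a fallen one.

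The members with the highest levels were part of, or next to, strongly expressed genes. YBR191W-A, 8 bases after the ribosomal protein gene RPL21A, had 3306 and 4314 RPKM in wild-type log phase and 2516 and 3506 at 48 h, and was at −1.01 ± 0.21 on the deposited scale (limma adjusted p = 0.000742). RPL21A was at −1.29. YDR154C, over CPR1, had 2377 and 2210 in log phase and 4934 and 4762 at 48 h, and was at 0.42 ± 0.13 on the deposited scale, a smaller change than its RPKM show. YOR309C, over the nucleolar protein gene NOP58, had 1054 and 1359 in log phase and 1259 and 1301 at 48 h, and was at −0.56 ± 0.17 on the deposited scale. Its RPKM did not fall, so the direction for YOR309C turns with the scaling.

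Among quiet members the largest rises in wild type at 48 h were those of YDL228C, across from the ribosome-associated chaperone gene SSB1 (3.24 ± 1.18), YNR042W, across from the coenzyme Q gene COQ2 (3.22 ± 0.90), and YFL013W-A, across from the chromatin remodelling gene IES1 (3.19 ± 0.97). YFL013W-A starts 213 bases after the stress protein gene HSP12 on the same strand, which rose by 8.16, from 6.54 and 4.80 RPKM to 2801 and 2282. Its reads were 0 and 0 in log phase and 9 and 4 at 48 h. All 3 calls were lost under quantile normalisation. YDL228C was also lost without log-phase replicate 1, 48 h replicate 1 or 48 h replicate 2, and YFL013W-A without 48 h replicate 1.

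Across strains, 29 members rose in all 4 oldest comparisons, which share no library. That is 5.31% of the 546 members tested in all 4, where 12.1% of all 6604 features rose in all 4. The wild-type and mus81 comparisons were fitted together and share 1 estimate of the spread of each feature, so their calls are not independent. The 29 included 13 antisense members, 7 near a same-strand gene, 5 on the strand of a gene, 3 apart and 1 with genes on both strands. Only 4 members fell in all 4 (0.733%, against 10.1% of all features, most of which stood at higher levels than most members). Each lay on the strand of a gene: YBL039C-A, YBR121C-A, YFR009W-A over GCN20, and YPR053C over the chromatin protein gene NHP6A. The last 2 are named after their values were seen. At least 1 comparison called 249 members higher and 42 lower, 8 were called in opposite directions, and 291 were called in none.

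Between mus81 and wild type 1 difference in a member was called. In log phase 1 member was lower in mus81 and none higher, where 0.405% of all features differed, 0.3% higher and 0.105% lower. It was YML009W-B, 434 bases of which overlap the elongation factor gene SPT5, with 855 and 811 reads in wild type and 576 and 280 in mus81, a difference of −1.29 ± 0.20 (limma adjusted p = 0.00740) that was lost under quantile normalisation, under a common floor, and without wild-type log-phase replicate 1 or mus81 log-phase replicate 2. At 48 h no member differed (limma, 23 at an unadjusted p under 0.05; 0.24% of all features called, 0.03% higher), and no member's 48 h change differed from that in wild type (18 at an unadjusted p under 0.05; 0.12% of all features called). The change in the members' summed reads was larger in mus81 than in wild type by 0.07 on the log2 scale at 48 h (exact permutation p = 0.333), and the change in the number detected smaller by 0.11 (exact permutation p = 0.444). With 36 arrangements the smallest p is 0.0556, so these tests could not pass 0.05.

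In the hst3 hst4 table, 9 of 550 members had an aged change that differed from that of the wild type, 6 higher and 3 lower, where 10.3% of all features did, 4.29% higher and 6.03% lower. Each rests on 1 wild-type log-phase and 1 wild-type aged library, and the count ran from 0 to 130 when 1 library was left out, with 0 without either aged hst3 hst4 library. In that wild-type pair, which has no replicate, 86 of the 348 members with at least 20 reads were at least 2-fold higher when aged and 40 at least 2-fold lower. Of all features, 7.88% were 2-fold higher and 3.54% 2-fold lower, so members passed 2-fold more often both ways. The member median was 0.27. Counting error is larger where reads are few, and its part in these shares was not tested. In the translocation table the control strain had 167 and the translocation strain 162 of 286 such members at least 2-fold higher at 48 h (26.7% and 23.0% of all features) and 12 and 18 at least 2-fold lower (15.6% and 13.6% of all features), with medians of 1.32 and 1.33. At 24 h 193 and 180 were at least 2-fold higher (25.0% and 21.5% of all features) and 11 and 12 at least 2-fold lower (9.65% and 11.3%). The difference between those 2 strains has no replicate and was not tested.

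Several measures moved with age beside the members, not alike in all strains, and their part in the results was not tested. The 5th percentile of the level of other genes went from 0.674 and 0.719 RPKM in wild-type log phase to 7.97 and 6.27 at 48 h, and in hst3 hst4 from 4.02 and 3.51 to 10.7 and 11.0. The share of reads in the ribosomal DNA spacers went from 0.0252% to 1.83% and 3.43% in wild type and reached 0.339% and 0.457% in mus81, while in hst3 hst4 it was 0.545% and 0.607% in log phase and 1.97% and 1.86% aged. Of 12 genes that mark daughter cells, 11 fell and none rose in wild type at 48 h, from a sum of 4136 and 3265 RPM to 2281 and 2881. In mus81 11 fell, in hst3 hst4 7 fell and 1 rose, and 2 fell in the translocation table. The sum went from 3440 and 2944 RPM to 1997 and 1794 at 48 h in mus81. In hst3 hst4 it was 2747 and 2393 in log phase and 2488 and 2447 aged. By 48 h it had gone up from 2585 to 3140 in the control strain and from 2716 to 2861 in the translocation strain. Of 15 genes active in haploid, a/a or alpha cells, which a/alpha diploids keep repressed, 12 rose and none fell in wild type at 48 h, from 77.5 and 75.9 to 328 and 268 RPM. Of these 9 rose in mus81, 3 rose and 2 fell in hst3 hst4, and 11 rose in the translocation table.

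Genes that remove or terminate such transcripts were called lower more often than higher in each of the 4 oldest comparisons. Of 22 measured genes of RNA surveillance and termination, 18 fell and 2 rose in wild type at 48 h, where 30.1% of all features fell. The exosome cofactor MTR4 was at −2.08, the exosome nucleases RRP6 and DIS3 at −1.76 and −1.54, the termination nuclease RAT1 at −1.47 and the termination factor NRD1 at −1.39, while its partners NAB3 and SEN1 rose by 0.55 and 0.71. In mus81 16 fell and 2 rose, and 13 fell and 1 rose in the translocation table. In hst3 hst4 8 fell, 4 rose and 10 were not called, where 23.6% of all features fell. Of 31 chromatin factors that restrain transcription within genes or keep chromatin silent, 22 fell and none rose in wild type, 9 fell and 7 rose in hst3 hst4, and 11 fell in the translocation table. Of 25 genes of meiosis and sporulation, which are also kept low in dividing cells, 22 rose and none fell in wild type, 15 rose in hst3 hst4 and 19 rose and 1 fell in the translocation table. The 196 dubious genes left out by the rule rose in 68 of 195 cases in wild type at 48 h, with a median of 1.53, and none fell. In hst3 hst4 54 of 183 rose and 6 fell, and 49 of 195 rose and none fell in the translocation table. The shares of all features that rose are those given above for the same comparisons. Calls depend on level, and these lists were not matched to all features by level. Their part in the changes of the members was not tested.

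Length and base composition of the members differed little by call. Members that rose in wild type at 48 h had a median length of 366 bases and a median GC content of 39.6%, against 336 bases and 39.9% for those not called. In hst3 hst4 the 94 risen members had 41.0%, those not called 39.7% and the 26 fallen 36.9%. For 11 members at least 30% of the sequence is copied elsewhere in the genome, so their reads are uncertain. YHR052W-A and YHR054W-A are among them.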

How the data were processed

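The members and gene lists were chosen with earlier results of these data known. Per the labels, poly(A)-selected RNA of purified mothers was made into directional libraries. Trim Galore 0.6.6, HISAT2 2.1.0 and build R64 are named in the submitters' processing notes; how reads were counted, whether by strand, and how they were scaled is not given in the sources used. The deposited values are log2 values per gene, scaled by the authors separately in each of 3 tables, with the lowest value of a library standing for 0 reads, entered as 0.9. Reads were recovered from the steps between low values, and 100% of low values came out whole within 0.02. RPM, and RPKM per kb of length, were computed from recovered reads of genes, whose totals ran from 1656535 to 11330955. No interval is given, and counting error grows as reads get few.

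Each comparison was fitted in limma 3.58.1 (R 4.3.3) to the deposited log2 values of all features above the floor in at least 2 libraries, with a variance trend and Benjamini-Hochberg adjustment over all features, and called at an adjusted p under 0.05. Residual degrees of freedom were 6 in the mus81 table and 2 in each of the others, and in the translocation table strain and age entered as additive terms. Single values per library were tested by exact permutation within strain and table. The fits were tested on simulated data. The alternatives were other scalings, floors, filters and variance models, limma voom on recovered reads, the replicate block, other distances between genes, and each library left out.

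Named members, each with at least 20 reads over its table, were the 8 largest rises and 4 largest falls called with no overlap of libraries in wild type at 48 h, the 3 largest such rises in each of the other 3 oldest comparisons, the 6 with the largest mean change among those risen in all 4, up to 4 called in each strain difference, the 3 highest in wild-type log phase, and the 3 largest rises among quiet members, with the genes that overlap or neighbour them. Sequences are from the RefSeq R64 genome.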

Additional observations from a re-analysis of the deposited data

Results flagged for a closer look

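The change from log phase to aged cells differed between hst3 hst4 and its wild type for 9 members by limma's test of the difference itself, on the log2 scale, with 1 wild-type library per age. It was larger in hst3 hst4 by 3.40 for YBL065W, which lies across from SEF1 and had 4 and then 0 reads in the wild type and 9 and 6 against 31 and 36 in hst3 hst4. It was larger by 3.39 for YNL109W, across from YNL108C, which had 26 and then 2 reads in the wild type and 13 and 16 against 19 and 26. It was larger by 2.73 for YHR056W-A, across from RSC30, and by 2.30 for YPR160W-A, inside GPH1, where the wild type went from 117 to 16 reads. It was larger by 2.25 for YCL041C, which overlaps PDI1 on its own strand and YCL042W on the other, and by 1.55 for IRC9, which overlaps YAK1. The difference was −2.24 for RRT1, −1.41 for YBL039C-A in URA7 and −1.33 for YBR191W-A behind RPL21A. None of the 9 calls was made under a common floor, without a variance trend, or without either aged hst3 hst4 library.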

How the results depend on the processing

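Under quantile normalisation the member medians were −0.18 (wild type 48 h), −0.085 (wild type 24 h), −0.14 (mus81 48 h), −0.14 (mus81 24 h), −0.19 (hst3 hst4), −0.22 (48 h in the translocation table) and −0.083 (24 h there), all opposite to the deposited scale, and the member calls in the translocation table were 65 at 48 h and 51 at 24 h. With a common floor the medians were 0.46, 0.48, 0.33 and 0.13 in the mus81 table in that order, and 0.40 and 1.09 in the translocation table. The 1 call between mus81 and wild type in log phase became 0 under quantile normalisation, a common floor or no variance trend, and the 9 differences in aged change became 0 under the last 2. With at least 20 reads the translocation table at 24 h gave 126 calls, with fewer features tested. The cause of these changes was not tested. Values relative to the median level of other genes were chosen after seeing the data; the members' summed reads were then 0.16 with an exact permutation p of 0.134.

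With 1 library left out, member calls ran from 123 to 218 (wild type 48 h), 77 to 218 (wild type 24 h), 82 to 194 (mus81 48 h), 64 to 122 (mus81 24 h), 27 to 211 (hst3 hst4), 30 to 198 and 127 to 252 (48 h and 24 h in the translocation table), 0 to 1 for either strain difference at one age, 0 to 0 for the difference in 48 h change and 0 to 130 for that in aged change. Medians ran from 1.09 to 1.34, 0.20 to 1.83, 0.45 to 1.42, 0.43 to 0.90, 0.44 to 0.65, 0.86 to 1.06 and 1.71 to 1.92 in the same order. The rise in summed reads ran from 0.63 to 0.82 and that in members detected from 0.58 to 0.74.

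The replicate block gave 193, 141, 165 and 106 calls in the mus81 table (wild type 48 h and 24 h, mus81 48 h and 24 h), 129 in hst3 hst4 and 9 differences in aged change, each within 1.5 times the count without it. Same-numbered libraries were not shown to be paired: their deviations had correlations of −0.23 to 0.29 over 15 pairs of groups. The library names of the mus81 table also carry codes A_41 and A_42, whose meaning is not given. They cross the replicate numbers at 24 h, and pairing by code gave correlations of −0.29 to 0.24. Over all results other than single members, settings other than a left-out library gave the same verdict in 147 cases, moved the value in 14, reversed it in 7 and lost the call in 1, and a left-out library moved it in 28 cases and not in 180. For named members 357 settings kept the call and 29 lost it, and 389 fits without 1 library kept it and 23 lost it. At this depth a member under 1 RPKM often has fewer than 10 reads in a library.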
